A study of Mus musculus with 16 samples.

Results

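Chymosin is an aspartic protease of the pepsin family that clots milk by cutting casein, and in ruminants it is made by the stomach glands of the suckling calf. Proteases of this family carry a pair of catalytic aspartates, each inside an Asp-Thr-Gly motif, and are secreted as inactive precursors. The mouse gene Cym is annotated as protein coding, and here its transcript was followed in single cells of the small-intestinal crypt, the gland that holds the stem cells, their dividing progeny and, at its base, Paneth cells. The gene was selected on its own readout in these data, which covered 1 gene of the 24421 listed.

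The cells came from mice at postnatal day 16, while pups still suckle and enterocytes begin to change from milk-type to adult-type digestion. WT mice were wild-type. ROBO mice were ROBO(+/-):Villin-Cre(+/-): they carried the Crainbow transgene, in which Cre chooses RSPO3, an R-spondin that raises Wnt signalling, or either of a pair of PTPRK:RSPO3 fusions, each with its own fluorescent protein, and Villin drives Cre in gut epithelium from before birth. The transgene is mosaic, so not every ROBO cell expresses the same cassette, and the matrices do not say which cell holds which. All mice were outbred and untreated. The labels list 8 samples per genotype, but the deposited matrices name cells by genotype and a running number, so each genotype was 1 pooled group. No test between genotypes was therefore possible, and every interval below is a 95% interval that covers counting error only.

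The WT matrix held 1348 cells and 2682127 UMIs (unique molecular identifiers, 1 per captured transcript), and the ROBO matrix held 1249 cells and 2428435 UMIs. The median cell had 1492 UMIs in WT and 1610 in ROBO. Within each matrix the columns were sorted by falling UMI totals in separate runs, a new run starting wherever a cell had more UMIs than the one before it: 5 runs in WT and 8 in ROBO. No label says what a run is, and the runs were not tied to samples. They fell into 2 kinds by a pair of marker genes that do not include Cym. In WT runs 2 to 4 and ROBO runs 1 to 5 there were more UMIs of Cubn, the cubilin receptor with which milk-fed enterocytes take up protein, than of Sis, the sucrase-isomaltase of the adult-type enterocyte; in WT runs 1 and 5 and ROBO runs 6 to 8 there were more of Sis. Sis lay between 0 and 0.19 per 10000 UMIs in the first kind and between 3.86 and 5.46 in the second. The Cubn-rich runs held 1598 cells and the Sis-rich runs 999, and 57.0% of WT against 66.5% of ROBO cells were in Cubn-rich runs.

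Cym lies on chromosome 3 at 107211293 to 107221732, minus strand (GRCm38, GENCODE identifier ENSMUSG00000046213.9), in 9 exons that encode 379 residues. The bases around both catalytic motifs are shown because they place the gene in its family and because they differ from each relative measured here. Each line gives coding sequence 5′ to 3′ on the gene's own strand, and capitals mark the codons of the catalytic Asp-Thr-Gly. The first motif of Cym is in exon 3 (chr3:107218652-107218681) and the second in exon 7 (chr3:107213448-107213477). The relatives are shown at their first motif: Pga5, a pepsinogen, at chr19:10675081-10675110 on the minus strand, Pgc, the gastricsin precursor, at chr17:47729303-47729332 on the plus strand, Ctse, cathepsin E, at chr1:131663362-131663391 on the plus strand, and Ctsd, the lysosomal cathepsin D, at chr7:142383461-142383490 on the minus strand.
Cym, first motif: gtggtgtttGACACAGGCtcctcagaactc
Cym, second motif: gccgttctgGACACAGGCactgccctgttg
Pga5, first motif: gttgtcttgGATACTGGAtcttcagtcctg
Pgc, first motif: gtccttttcGACACTGGCtcctccaacctg
Ctse, first motif: gtcatctttGACACCGGTtcatccaacctc
Ctsd, first motif: gtcgtctttGATACTGGCtcctctaacctg

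At the first motif Pga5 differed from Cym at 10 of 30 bases, Pgc and Ctse at 9 and Ctsd at 8. Over the aligned coding sequence Pga5 matched Cym at 62.2% of bases, Ctse at 62.1%, Pgc at 60.1% and Ctsd at 59.3%. None of the 1206 31-base words of the Cym transcript, on either strand, occurred in the transcript of another annotated gene, the 470 at its 3′ end, where this kit reads, included. No other annotated gene overlapped Cym on either strand. The nearest protein-coding gene was 8882 bases away.

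Cym was found in many cells at a low level and in a few cells at a very high one. At least 1 Cym UMI was present in 642 of 2597 cells, 24.7% (exact binomial interval 23.1 to 26.4). In WT there were 976 Cym UMIs in 294 cells, and in ROBO 676 UMIs in 348 cells. The median carrying cell had 1 UMI in both genotypes, and 374 of the 642 carriers, 58.3%, had exactly 1. A further 233 carriers had 2 to 5 UMIs, 35 had 6 or more and 19 had 10 or more. The count in a single cell reached 165 in WT and 33 in ROBO.

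The 5 cells with the most Cym UMIs, by which the rule for this gene was set, held 332 of the 1652 UMIs, 20.1%. They were 3 WT cells with 165, 60 and 49 UMIs and 2 ROBO cells with 33 and 25, and the next cell had 24. In the first of them Cym made up 6.50% of all UMIs in the cell. The 26 cells with the most UMIs, 1% of all cells, held 35.6%. For comparison, the median gene with at least 100 UMIs had 5.60% of its UMIs in its own 5 top cells, and Cym ranked 91 of 7458 genes. Genes with a low total reach a high share easily: among the 525 genes with a total within 1.5 times that of Cym the median was 2.51% and Cym ranked 7, with Gip, Gzma, Defa17, Itln1 and Muc2 in the lead. Gip marks enteroendocrine cells, Gzma lymphocytes, Defa17 and Itln1 Paneth cells and Muc2 goblet cells. With each cell thinned to 912 UMIs, the variance of Cym over its mean (Fano factor) was 9.21, against a median of 1.11 over all genes, and it was 2.20 without the 5 top cells.

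**Figure D1:**
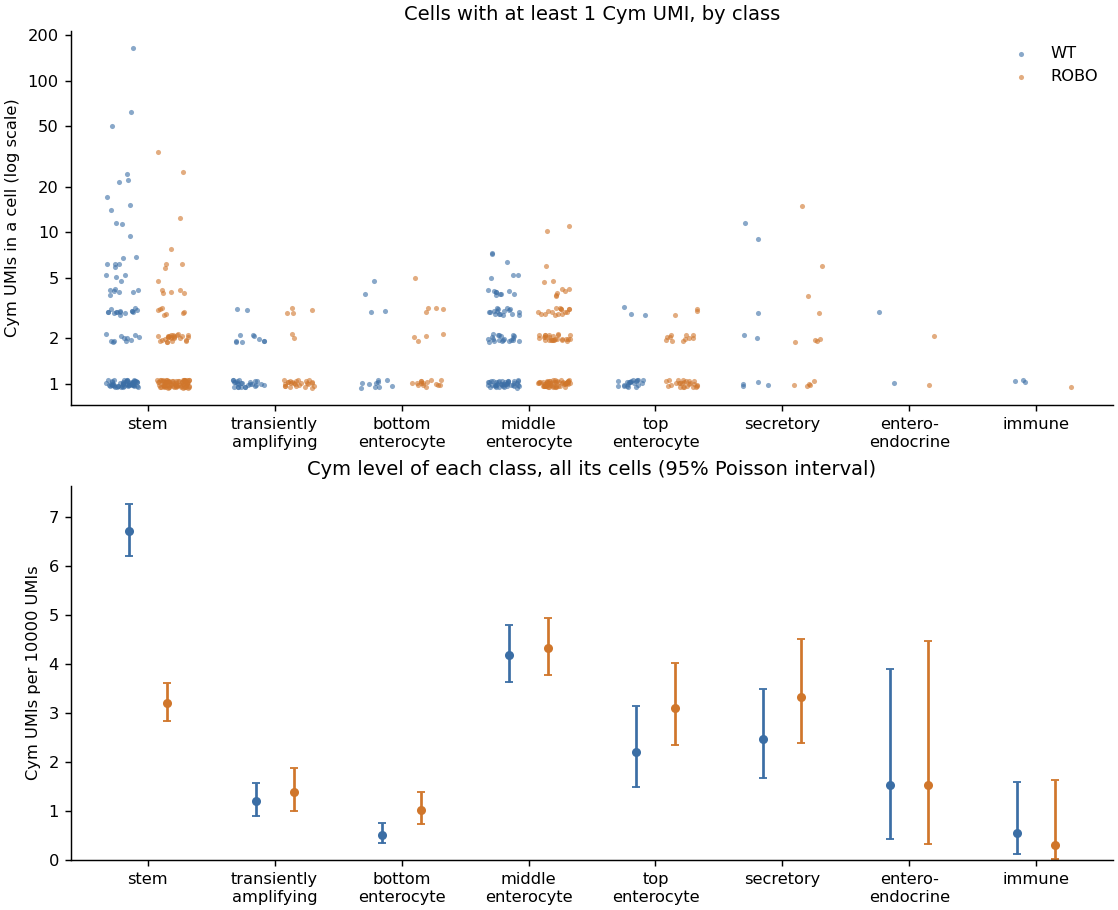
Top, Cym UMIs in each of the 642 cells with at least 1, by cell class and genotype, on a log axis with a small random offset to separate points; bottom, Cym UMIs per 10000 UMIs over all cells of the class with the 95% Poisson interval. Counts of 10 or more lie in the stem-like, middle enterocyte-like and secretory classes, and the stem-like level is 6.72 in WT and 3.20 in ROBO. Fibroblast-like cells, with no Cym UMI, are not drawn.

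Cells were clustered without reference to genotype, and 12 clusters were named in 9 classes from markers. Carriers of Cym were found in 8 of the 9 classes, and most were stem-like or middle enterocyte-like. Of the 642 carriers, 237 (36.9%) were stem-like and 205 (31.9%) were middle enterocyte-like, and a further 69 were transiently amplifying-like, 63 top enterocyte-like, 38 bottom enterocyte-like and 22 secretory, which here means goblet-like and Paneth-like cells in 1 cluster. The stem-like class combined a shallow cluster led by Igfbp4 (615 cells, median 1029 UMIs) and a deep one led by Sfrp5 (298 cells, median 3233 UMIs). Cym ranked 49 among the 2000 variable genes behind the clusters, so classes were not independent of it.

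The middle enterocyte-like class carried Cym in the largest share of its cells, and at few UMIs each. A Cym UMI was present in 205 of 462 cells, 44.4% (39.8 to 49.0), with a median of 2 UMIs per carrier and at most 11. Its level was 4.18 Cym UMIs per 10000 in WT and 4.33 in ROBO (Poisson interval 3.78 to 4.94). Both clusters of the class carried it, in 156 of 328 cells of the cluster led by Cubn and Lct, the lactase gene of the suckling gut (4.10 to 5.14 per 10000), and in 49 of 134 cells of that led by Sis (2.88 to 4.24). Leaving out the 26 top cells moved the class by little, to 4.01 in WT and 3.99 in ROBO.

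The stem-like class held 903 of the 1652 UMIs, 54.7%, but in a smaller share of its cells, 237 of 913 (23.1% to 28.9%). Its level was 6.72 per 10000 in WT (6.21 to 7.27) and 3.20 in ROBO (2.83 to 3.60). The top 26 cells gave 57.4% of the UMIs of the class. Without them it stood at 2.17 in WT and 2.24 in ROBO, below the middle enterocyte-like level in both. Thus the high stem-like level rested on few cells and the middle enterocyte-like level on many.

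The other classes were lower. Top enterocyte-like cells had 2.20 per 10000 in WT (1.48 to 3.14) and 3.09 in ROBO (2.34 to 4.01), and secretory cells 2.46 (1.67 to 3.49) and 3.32 (2.38 to 4.50). The 2 clusters of the transiently amplifying-like class differed: the shallow one led by Rn45s, which had no more than 3 markers raised, had 3.27 per 10000, and the other, led by Dmbt1 and the mitotic gene Pbk, had 0.25 (0.13 to 0.44). Bottom enterocyte-like cells had 0.51 in WT (0.33 to 0.75) and 1.02 in ROBO (0.73 to 1.39). By level the order was stem-like, middle enterocyte-like, secretory, top enterocyte-like, enteroendocrine-like, transiently amplifying-like, bottom enterocyte-like and immune-like, and the intervals of the secretory and top enterocyte-like classes, of the enteroendocrine-like class and both its neighbours, and of the bottom enterocyte-like and immune-like classes overlapped.

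Cells that should not make a secreted stomach protease gave the background. Immune-like cells, lymphocytes by Gzma and Ccl5, held 4 Cym UMIs in 45 cells, or 0.45 per 10000 (0.12 to 1.14), each in a different cell, with a median depth of 1750 UMIs against 1550 over all cells. Thinned to 912 UMIs, 2 of 36 immune-like cells had a Cym UMI, 5.56% (0.680 to 18.7), against 18.1% (15.2 to 21.3) of stem-like and 30.1% (25.6 to 34.9) of middle enterocyte-like cells. The 8 fibroblast-like cells held none, which allows a level of up to 1.88 per 10000. The Dmbt1-led cluster, with at most 1 Cym UMI in a cell, lay within the immune-like interval. So did stem-like cells of the Sis-rich runs, at 0.68 (0.46 to 0.97). Whether these UMIs were background was not tested. The bottom enterocyte-like level overlapped the immune-like interval. Of its 331 cells 9 held 3 to 5 Cym UMIs. No immune-like cell held more than 1, but 45 cells are too few for this comparison.

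Cym was set beside Apoa4, the abundant apolipoprotein of villus enterocytes, in the Cubn-rich runs without the 26 top cells. Apoa4 was at 387 per 10000 in middle and 1546 in top enterocyte-like cells, which make it themselves. Their ratios therefore do not describe free transcript from broken cells. The runs were pooled, and whether the Cym of any class was free transcript was not tested. Stem-like cells held 355 Cym and 2374 Apoa4 UMIs, which is 13.4 to 16.6 Cym UMIs per 100 of Apoa4. The ratio was 1.15 in middle enterocyte-like cells (1.02 to 1.29) and 0.183 in top enterocyte-like cells (0.146 to 0.227). In immune-like cells the ratio was 8.70, from 2 Cym and 23 Apoa4 UMIs (1.05 to 31.4), an interval that holds the stem-like and middle enterocyte-like values and not that of top enterocyte-like cells. In these runs the Cym level of stem-like cells without the 26 top cells was 2.73 per 10000 (2.45 to 3.03) and that of immune-like cells 0.53 (0.06 to 1.90).

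The Cym level differed between runs of columns. In WT the level was 1.60 per 10000 in run 1, 6.25 in run 2, 5.56 in run 3, 7.78 in run 4 and 0.31 in run 5. In ROBO it was 4.31, 2.86, 3.38, 3.77 and 4.98 in runs 1 to 5 and 1.90, 0.66 and 1.48 in runs 6 to 8. All 8 Cubn-rich runs (2.86 to 7.78) thus lay above all 5 Sis-rich runs (0.31 to 1.90), in both genotypes. The share of cells with a Cym UMI was 29.7% to 35.8% in the Cubn-rich runs and 4.04% to 23.7% in the Sis-rich runs. Pooled, the Sis-rich runs were deeper, with a median of 2023 UMIs per cell against 1304. WT run 5, which had the 4.04%, was not deeper. Its median of 1292 lay within the 1034.5 to 1533 of the Cubn-rich runs, while the other Sis-rich runs had 1871 to 2710. Of the 26 top cells 24 were in Cubn-rich runs and 2 in ROBO run 6.

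Lists of milk-feeding and adult-type genes differed between the kinds of run, but they include Cubn and Sis, by which the kinds were set. The summed level of 22 genes of milk digestion and uptake, among them Lct and Fcgrt, the receptor that carries maternal antibody across the gut, was 63.3 to 89.8 per 10000 in the Cubn-rich and 25.4 to 31.9 in the Sis-rich runs. The summed level of 7 adult-type enterocyte genes was 3.23 to 4.56 and 13.2 to 15.3. Lct and Fcgrt did not set the kinds. Lct was at 14.0 to 20.2 in Cubn-rich and 3.29 to 7.98 in Sis-rich runs, and Fcgrt at 24.1 to 38.7 and 1.72 to 5.80. What separates the runs was not tested, and a difference between runs cannot be told apart from one between animals.

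**Figure D2:**
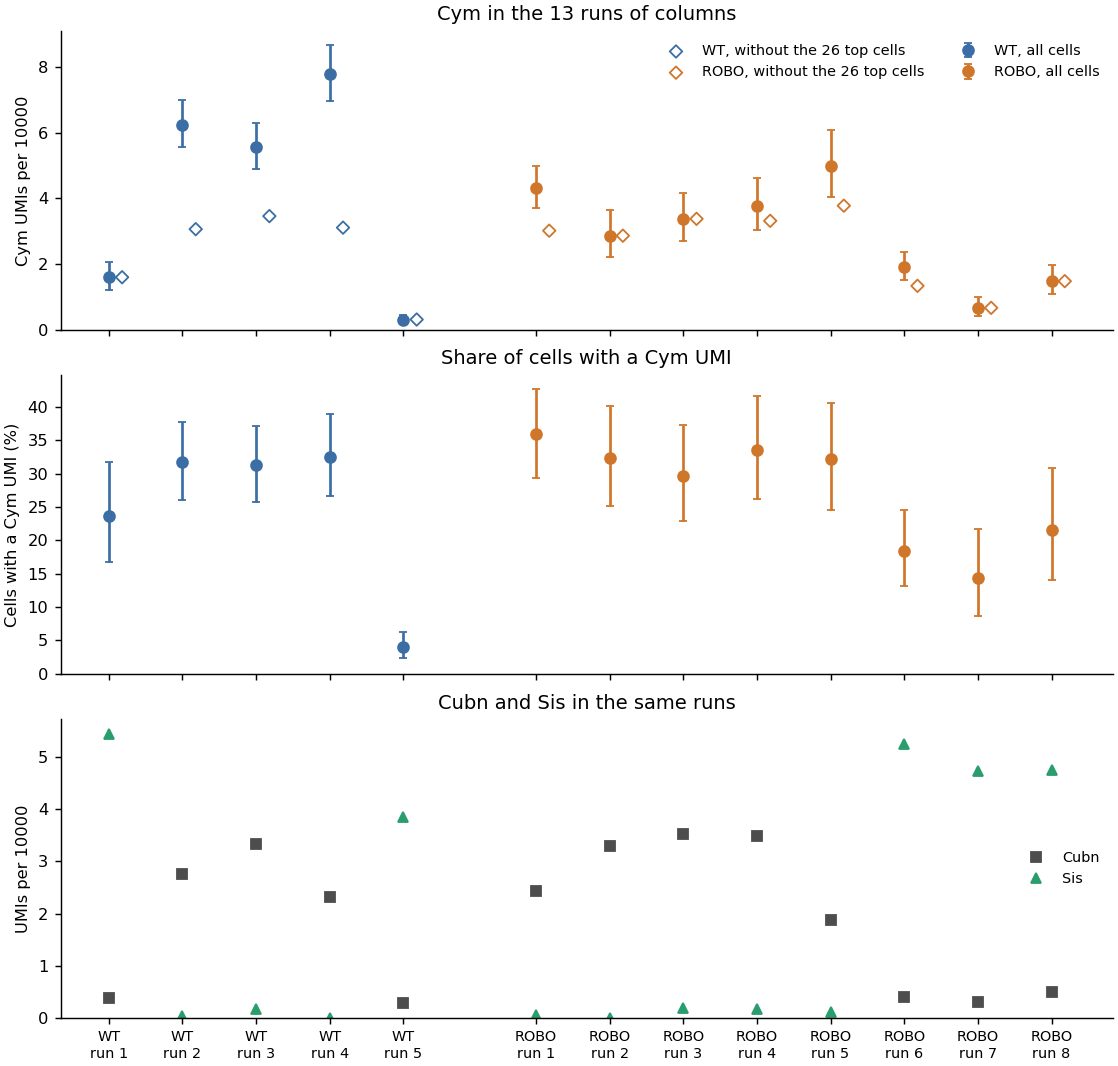
Cym in the 13 runs of columns: UMIs per 10000 with the 95% Poisson interval, filled, and without the 26 top cells, open (top), percent of cells with a Cym UMI with the exact binomial interval (middle), and UMIs of Cubn and Sis per 10000 (bottom). Runs with more Cubn than Sis hold 2.86 to 7.78 Cym UMIs per 10000 and the others 0.31 to 1.90.

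The difference between the kinds of run was present within classes. Stem-like cells had 6.47 Cym UMIs per 10000 in Cubn-rich runs (6.05 to 6.91, 725 cells) and 0.68 in Sis-rich runs (0.46 to 0.97, 188 cells). Secretory cells had 5.51 (4.13 to 7.21) and 1.24 (0.74 to 1.93), but in the Sis-rich runs 1 ROBO cell held 15 of the 19 UMIs, the level without it was 0.27, and the 34 WT cells held none. The class was also a different mix in each kind of run: the goblet gene Zg16 had 10 UMIs in the 68 secretory cells of the Cubn-rich runs and 5088 in the 60 of the Sis-rich runs. Transiently amplifying-like cells had 3.49 (2.77 to 4.34) and 0.22 (0.11 to 0.40), and these came mostly from different clusters, the Rn45s-led one in Cubn-rich and the Dmbt1-led one in Sis-rich runs. Middle enterocyte-like cells differed less, 4.66 (4.16 to 5.21) against 3.43 (2.82 to 4.13), again from different clusters, led by Cubn and by Sis.

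Over runs the middle enterocyte-like level varied less than the stem-like level. In the 8 Cubn-rich runs it ranged from 3.65 to 5.58 per 10000, and the share of its cells with a UMI from 38.8% to 56.8%. In the Sis-rich runs it was 4.15 in WT run 1, 4.604 in ROBO run 6, 2.11 in ROBO run 7 and 5.22 in the 17 cells of ROBO run 8, but 1.19 in WT run 5, where 4 of 48 such cells carried Cym. WT run 5, the largest run, was the lowest of all runs: 18 of its 445 cells carried Cym, and its stem-like level was 0.26. The stem-like level in Cubn-rich runs ran from 2.43 to 10.9, with the 3 WT runs (6.47 to 10.9) above the 5 ROBO runs (2.43 to 5.78).

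Of stem-like cells with 6 or more Cym UMIs, 16 of 18 in WT and 3 of 7 in ROBO carried Lgr5. Lgr5 is the R-spondin receptor that defines the cycling stem cell of the crypt base. It was in 19 of the 26 top cells, of which 16 were stem-like, and in 4 of the 5 top cells. Of the other cells of all classes 8.13% had an Lgr5 UMI, but these cells were shallower (median 1545 against 2769 UMIs). Over the 26 cells the mean Lgr5 level was 6.55 per 10000, against 1.10 in the other cells weighted to the same classes, a log2 difference of 2.14 on the log2(per 10000 + 0.5) scale. It was 2.09 in WT and 2.29 in ROBO taken alone, 2.27 without the 5 top cells, and 2.40 against other cells of the same runs and clusters. Lgr5 ranked 8 by this difference among the 7457 genes compared.

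Grouping by Lgr5 in place of Cym takes the same cells and UMIs from the other side, so it is no separate support. Cym was higher in cells with Lgr5 in the WT Cubn-rich runs. In the ROBO ones the difference was weaker and uneven between runs. In WT Cubn-rich runs, 57 stem-like cells with an Lgr5 UMI held 477 Cym UMIs, 42.2 per 10000, and 291 without one held 138, 2.37 per 10000 (log2 ratio 4.15, 3.88 to 4.44). In ROBO Cubn-rich runs, 45 cells with Lgr5 held 66 UMIs, 7.69 per 10000, and 332 without held 192, 3.37 per 10000 (log2 ratio 1.19, 0.76 to 1.60). At least 6 Cym UMIs were found in 16 of the 57 and 2 of the 291 WT cells, and in 3 of the 45 and 4 of the 332 ROBO cells. Leaving out the 5 top cells, WT cells had a log2 ratio of 3.04 (2.72 to 3.36), and ROBO cells one of 0.83 (0.30 to 1.33). Over all runs of both kinds the ROBO ratio was 0.40 (-0.007 to 0.80), and 0.07 (-0.43 to 0.54) without the 5 top cells. In the Sis-rich runs no such difference was detectable, with 13 Cym UMIs in 63 stem-like cells with Lgr5 and 17 in 125 without (log2 ratio -0.13, -1.30 to 1.00).

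By run, the level in cells with an Lgr5 UMI against those without was 35.4 and 2.44 in WT run 2, 35.0 and 2.46 in WT run 3, and 55.1 and 2.23 in WT run 4. It was 9.32 and 3.77, 2.45 and 2.43, 4.87 and 3.09, 0.97 and 3.52, and 16.2 and 3.70 in ROBO runs 1 to 5. Single cells set several of these levels. Without the highest cell among those with Lgr5 the level was 25.1 in WT run 2, 17.1 in WT run 3, 14.3 in WT run 4, 6.75 in ROBO run 1 and 2.75 in ROBO run 5, where that cell held 25 of 29 UMIs. Among the cells without Lgr5 in ROBO run 1, 1 cell held 33 of 75 UMIs, and the level without it was 2.13. The WT Cubn-rich runs and ROBO run 1 thus stayed higher in cells with Lgr5 without their highest cell. ROBO runs 2 to 5, with 5 to 11 such cells each, did not. Their levels without that cell were 1.62, 0, 0 and 2.75. The level in cells without Lgr5 was alike in the 8 runs, 2.23 to 3.77.

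**Figure D3:**
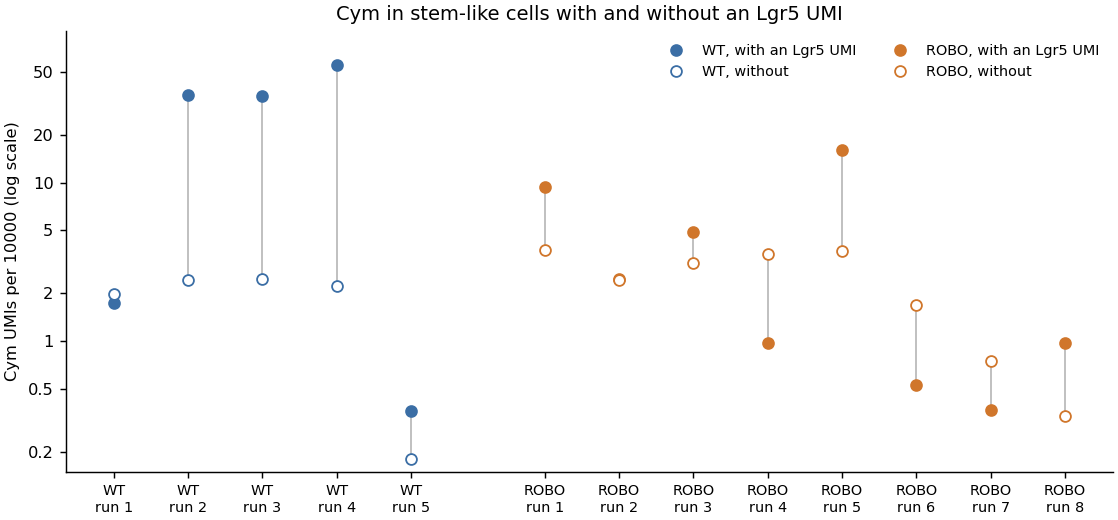
Cym UMIs per 10000, on a log axis, in stem-like cells with an Lgr5 UMI (filled) and without one (open) in each of the 13 runs. The 3 WT runs 2 to 4 reach 35.0 to 55.1 in cells with Lgr5 and stay at 2.23 to 2.46 in those without.

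The share of cells with Lgr5 was largest where Cym was highest. Of stem-like cells with no Cym UMI, 15.2% (12.6 to 18.2) had an Lgr5 UMI, of those with 1 Cym UMI 19.1% (12.9 to 26.7), of those with 2 to 5 22.4% (13.6 to 33.4) and of the 25 with 6 or more 76.0% (54.9 to 90.6). Of those 25, 16 of 18 in WT and 3 of 7 in ROBO had Lgr5. With both genes thinned to 912 UMIs per cell, Lgr5 was in 58 of 529 cells with no Cym UMI (8.43% to 13.9%), 10 of 78 with 1 (12.8%) and 11 of 39 with 2 or more (28.2%). The last share was above the interval of the first. Secretory cells had 10.5 Cym UMIs per 10000 in 16 cells with an Lgr5 UMI against 1.67 in 112 without, but 2 cells held 15 and 11 of the 36 UMIs of the former, and without them the level was 3.60. In middle enterocyte-like cells the values were 5.46 in 12 and 4.21 in 450, a difference within counting error (log2 ratio 0.38, -0.30 to 0.98).

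The 26 top cells were compared with the other cells gene by gene. They were 18 WT and 8 ROBO cells, 19 of them stem-like, 4 middle enterocyte-like and 3 secretory, and they had a median of 2769 UMIs against 1545 in the rest. The last of them had 6 Cym UMIs, as had 9 cells just outside, so the border is arbitrary. Of 7457 genes with at least 100 UMIs other than Cym, 109 (1.46%) were at least 2-fold higher and 192 (2.57%) at least 2-fold lower in the mean of the top cells. With 26 cells from pooled animals these are descriptions without a test.

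In both genotypes taken alone, 20 genes were at least 2-fold higher and 91 at least 2-fold lower. Of the 20, 4 were seen in at least 10 of the 26 cells, a filter set in the top cells themselves and used for the higher genes alone: Lgr5, Reg3b, Nbr1 and Rpl7l1. Reg3b, an antibacterial lectin of the gut, was at 22.6 per 10000 against 7.92. Nbr1, an autophagy receptor, was at 2.41 against 0.77, and Rpl7l1, which works in ribosome assembly, at 2.52 against 0.86. Against other cells of the same runs and clusters Reg3b and Nbr1 fell to log2 differences of 0.63 and 0.91, below 2-fold, and Rpl7l1 stayed at 1.09. The 5 largest negative differences were those of the goblet genes Zg16 (0.11 against 16.7 per 10000), Clca1 (0 against 3.21) and Fcgbp (2.10 against 12.6), the metallothionein Mt2 (0.50 against 5.22) and the pentraxin Mptx1 (0.04 against 1.83). Against the same runs and clusters Mt2 and Mptx1 were no longer 2-fold lower (log2 -0.83 and -0.0086). The goblet differences rested on the 3 secretory top cells: without these the log2 differences of Zg16, Clca1 and Fcgbp were -0.55, -0.28 and 0.60, while those of Lgr5 and Mt2 were 2.18 and -2.45.

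**Figure D4:**
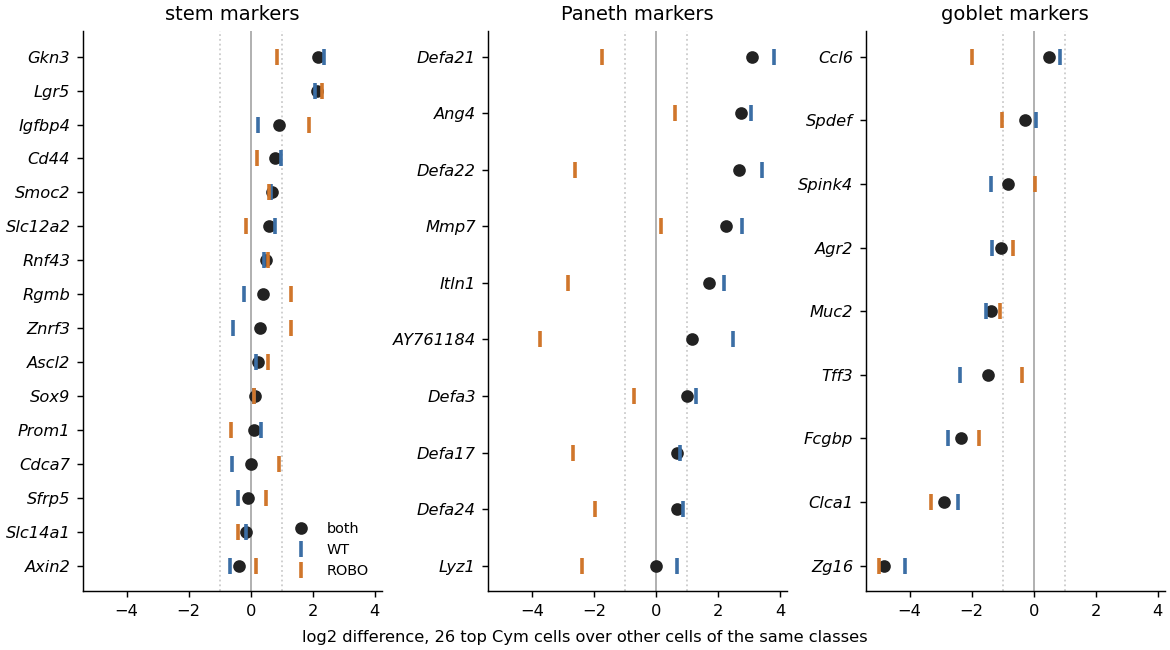
Log2 difference in mean UMIs per 10000 (0.5 added) between the 26 top Cym cells and other cells of the same classes for stem, Paneth and goblet markers with at least 100 UMIs: both genotypes (black), WT alone and ROBO alone (bars). Dotted lines mark 2-fold; Lgr5 is past it in both genotypes, and most Paneth genes, though not Ang4 and Mmp7, differ in sign between them. Most Paneth and goblet differences rest on 3 secretory cells.

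Stem markers other than Lgr5 and Gkn3 moved less. Of 16 measured, 2 were at least 2-fold higher and none lower, with a median log2 difference of 0.35 against -0.13 over all genes. The second was Gkn3, a gastrokine, at 3.95 per 10000 against 0.50 (log2 2.16), seen in 7 of the 26 cells and at 0.86 in ROBO alone. Smoc2 was at 2.50 against 1.36, Ascl2, a stem cell transcription factor, at 1.42 against 1.14, Axin2, a Wnt target, at 3.31 against 4.50, and Sox9 at 3.00 against 2.70. Olfm4 had 58 UMIs in all cells and was too low to compare. None of the 16 transiently amplifying markers passed 2-fold either way (median -0.29), Tubb5 being at 3.94 against 5.17.

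The Paneth and goblet markers differed through the 3 secretory top cells. Of 10 Paneth markers 6 were 2-fold higher, Defa21 (11.8 against 0.94 per 10000), Defa22, Ang4, Mmp7, Itln1 and AY761184, and none lower. Defa21 and Defa22 were seen in 3 of the 26 cells each, and 1 secretory WT cell with 9 Cym UMIs held 95 UMIs of Defa21, 126 of Defa22, 238 of Itln1 and 700 of Gm15284, an alpha-defensin gene. In ROBO the differences of Defa21, Defa22, Itln1 and AY761184 were negative. Mmp7, the matrilysin that activates defensins, was seen in 10 of the 26 cells. Of 9 goblet markers 6 were 2-fold lower (median log2 -1.38) and none higher, Muc2 being at 2.45 against 7.18. The level they were set against came from secretory cells, and 24 of the 26 top cells were in Cubn-rich runs, where Zg16 had 15 UMIs in all cells. Without the 3 secretory top cells 1 goblet marker, Tff3, was 2-fold lower (median -0.29), and 1 Paneth marker, Mmp7, was 2-fold higher (3.78 against 0.48 per 10000; median -0.020).

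Milk-feeding genes showed no 2-fold difference between the high cells and other cells weighted to the same classes. Such weighting evens out genes that mark a class, so this cannot be set against the difference between runs. None of the 14 measured genes of milk digestion and uptake was 2-fold different (median log2 -0.0012), with Fcgrt at 10.9 against 7.80 per 10000 and Lct at 9.004 against 7.78. None of the 5 adult-type enterocyte genes passed 2-fold, and none of 13 middle enterocyte markers, Apoa4 being at 82.8 against 73.1. Top enterocyte markers had 1 of 9 lower, Krt20. Of 7 bottom enterocyte markers the lectins Reg3b and Reg3g were higher and Dmbt1 was lower. Of 10 immediate-early and stress genes, which rise when tissue is taken apart, Fosb and Ier2 were lower and none higher (Fos 5.58 against 10.6). No immune or mast cell marker was past 2-fold, and 1 of 6 fibroblast markers was, Sparc, from 1 cell. Of the 7 enteroendocrine markers none passed. No tuft marker reached 100 UMIs. Of the red blood cell markers, Alas2 had no UMI. None of the 26 was among the 6 cells called doublets (2 WT and 4 ROBO), too few to judge the caller by.

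The 5 top cells differed in their other genes. Set against other stem-like cells at its own depth, the cell with 165 Cym UMIs had 16 UMIs of Clu, clusterin, with 0.116 expected, and 15 of the calcium-binding S100a6 with 0.186 expected. The cell with 60 had 21 of S100a6 (0.278 expected) and 30 of the keratin Krt19 (8.03 expected). The cell with 49 had 8 of Clu (0.117 expected). These are the 3 WT cells. Over all 26 top cells Clu was seen in 7 and stood at 5.28 per 10000 against 0.33 (log2 2.80, WT 3.09, ROBO 1.94). S100a6, also in 7, stood at 5.43 against 1.06 (log2 1.93, but -0.36 in ROBO). Both genes were picked from the 5 top cells, and without those cells the log2 differences were 0.35 for Clu and -0.81 for S100a6. The ROBO cell with 33 had 6 of Reg3b (0.983 expected), and in that with 25 the largest excess was 59 of Reg3b (2.51 expected). Tmsb4x, which binds actin, was in excess in 4 of the 5 cells. Over all 26 its log2 difference was 0.66, and 0.14 without the 5. Krt19 was lower over all 26, at 12.6 against 19.7 per 10000 (log2 -0.62, and -1.42 without the 5).

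The listed genes of the gastric gland were nearly absent. Of 17 gastric gland genes in the matrices 8 had no UMI in any cell, among them Gif and Lipf of chief cells and Atp4b of acid-secreting cells, and 3 had 10 UMIs or more, Tff2 with 46, Bhlha15 with 22 and Atp4a with 12. None of the 17 had a UMI in the 26 top cells. The gastrokine Gkn3, listed here as a stem marker and not among the 17, was seen in 7 of the 26. Of 19 genes listed as pancreatic acinar enzymes, 5 had a UMI there, 36 in all, of which 27 were of Clps, colipase, and 1 of the list, Zg16, was 2-fold lower; Zg16 is also a goblet gene.

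Among the relatives of Cym, Ctsd was the one found in many cells. It had 1132 UMIs in 807 cells, 31.1%, at most 6 in a cell, and its level was highest in top enterocyte-like cells (4.03 per 10000) and 1.89 in stem-like cells. Its 5 top cells held 2.30% of its UMIs, it was at 2.48 per 10000 in Cubn-rich and 1.91 in Sis-rich runs, and in the 26 top Cym cells at 1.502 against 2.19. Pga5 and Pgc had 2 UMIs each, Ctse 11, in 4 cells, and Napsa, the lung and kidney protease napsin A, 16. The secretases Bace1 and Bace2 had 47 and 51, and Ren1 and Ren2, the renins, none.

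Over 18 values, 9 classes in each genotype, the levels most like that of Cym were those of Nnt, the mitochondrial transhydrogenase (Pearson r 0.93), Tmem184a (0.91), Epn1, an endocytic adaptor (0.89), Gucy2c, the guanylin receptor of the enterocyte brush border (0.89), X1110038B12Rik (0.89), Grb7 (0.89), Myo18a (0.88), Ush1c and Myo1a of the microvillus (0.88 and 0.88) and Smagp (0.88), out of 3619 genes with at least 300 UMIs. The 18 values share libraries and depth, and r is given as a description. None of these 10 was 2-fold higher in the top cells, the highest being Smagp at 0.45 on the log2 scale.

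Between genotypes the Cym level was 3.64 per 10000 in WT (3.41 to 3.87) and 2.78 in ROBO (2.58 to 3.00), a log2 ratio of ROBO over WT of -0.39 (-0.53 to -0.24). Of all genes, 11.8% differed by 1.3-fold or more either way. Over all cells, leaving out the 5 top cells gave levels of 2.63 and 2.55 and a log2 ratio of -0.043 (-0.20 to 0.12). This ratio pools kinds of run that differed in direction. Without the 26 top cells it was 0.25 (0.08 to 0.43), higher in ROBO. These cells were chosen by Cym itself, and 18 with 468 Cym UMIs were WT and 8 with 120 were ROBO. Leaving them out therefore lowers WT more by construction. The share of cells with a Cym UMI was 21.8% in WT and 27.9% in ROBO, but after thinning to 912 UMIs, which left out 364 WT and 285 ROBO cells, it was 15.9% and 17.6%, a difference of 1.78 points (Newcombe interval -1.54 to 5.10).

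No run held both genotypes, so no ratio within a run exists, and the direction of the ratio depended on the kind of run. In the Cubn-rich runs WT cells had 6.49 Cym UMIs per 10000 and ROBO cells 3.89 (log2 ratio -0.74, -0.90 to -0.58), where 2.13% of genes differed by 1.5-fold or more. In the Sis-rich runs it was 0.68 and 1.40 (log2 ratio 1.05, 0.66 to 1.45), where 2.22% of genes differed by 2-fold or more. The Sis-rich WT runs (0.31 and 1.60) overlapped the ROBO ones (0.66, 1.48 and 1.90), whereas the 3 WT Cubn-rich runs (5.56 to 7.78) lay above all 5 ROBO ones (2.86 to 4.98). Without the 26 top cells, chosen by Cym itself and mostly WT, the Cubn-rich runs no longer separated. WT runs stood at 3.06, 3.46 and 3.11 and ROBO runs at 3.02, 2.86, 3.38, 3.32 and 3.78. The log2 ratio was 0.0083 (-0.19 to 0.21). A narrower gap follows from that choice of cells. Without the 5 top cells alone the log2 ratio of the Cubn-rich runs was still -0.38 (-0.56 to -0.20). The share of thinned cells with a UMI in these runs was 24.2% in both genotypes.

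By class, the stem-like ratio in Cubn-rich runs was -1.17 on the log2 scale (-1.38 to -0.96) with all cells. It was -0.69 (-0.95 to -0.44) without the 5 top cells and -0.036 (-0.35 to 0.27) without the 26 top cells. The middle enterocyte-like ratio there was -0.13 (-0.46 to 0.20), the transiently amplifying-like one -0.11 (-0.78 to 0.55) and the top enterocyte-like one 0.64 (-0.04 to 1.34). Of the 26 top cells 9, 6 and 3 came from WT runs 2, 3 and 4, and in ROBO 4 from run 1, 2 from run 6 and 1 each from runs 4 and 5. Of the 26, 18 were WT and 19 had an Lgr5 UMI, and the WT ones were spread over 3 runs. Whether animals differed within a genotype could not be seen.

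**Figure D5:**
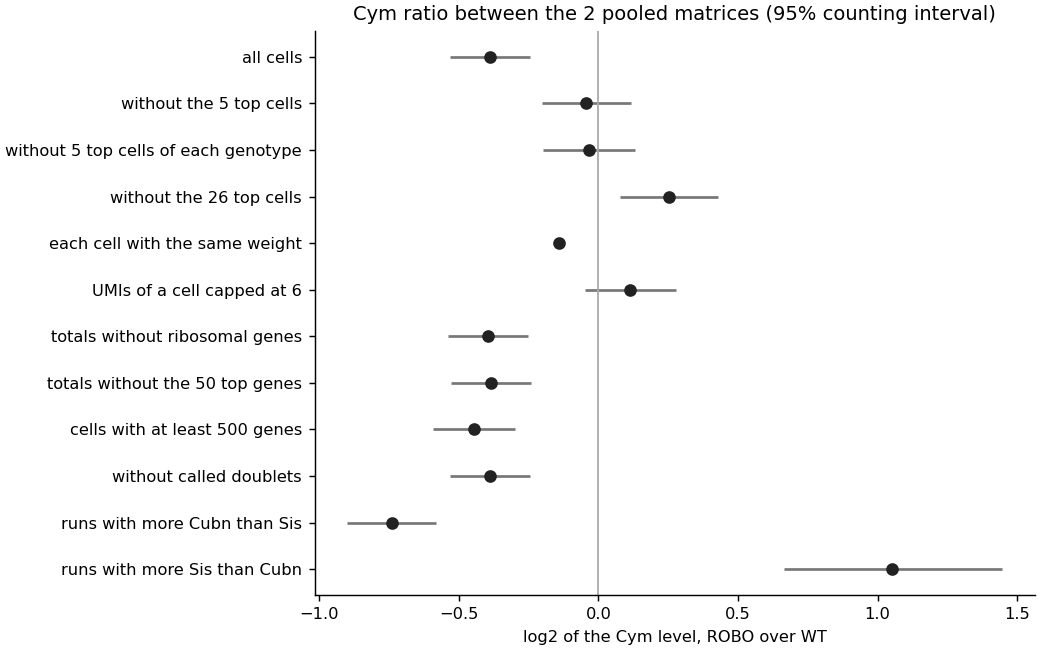
Log2 ratio of the Cym level in ROBO over WT for all cells and under 11 other settings, with 95% counting intervals where one exists. It is -0.39 for all cells, -0.043 without the 5 top cells, 0.25 without the 26 top cells, -0.74 in runs with more Cubn than Sis and 1.05 in runs with more Sis than Cubn.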

How the data were processed

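Crypt cells of small intestine were captured on a Bio-Rad ddSEQ instrument with a 3′ whole-transcriptome kit, with cartridges pooled per genotype. Gene matrices were made in BaseSpace, and the authors deposited 1 matrix per genotype of raw counts (UMIs per gene and cell, not normalized). The submitters' processing notes name mm10 and GRCm38, and the aligner is not given in the sources used here. Columns carry no sample name. Both matrices were joined, normalized, corrected for S and G2/M phase scores and clustered with Seurat 5.3.0 (2000 variable genes, 20 principal components, resolution 0.8). A class was eligible for a cluster with at least 3 markers raised (1.5-fold, 0.1 per 10000 added, detected in at least 10% of its cells). The cluster took the eligible class with the largest mean log2 difference over its markers. Levels are UMIs per 10000, compared between genotypes as sums with no test. Ratios have conditional exact, levels Poisson, shares Clopper-Pearson and differences of shares Newcombe intervals (95%), which cover counting error only. A count of 0 allows 3. Top cells were compared as means over cells with 0.5 per 10000 added, for genes with at least 100 UMIs. Ties in Cym were broken by fewer UMIs. Doublets were called with Scrublet (scanpy 1.11.5) and kept. The scripts were tested on simulated data. The gene, lists and tests were chosen with earlier results of these data known. Named genes were Cym, Lgr5, the pepsin family, the 3 genes with most UMIs per list where informative, the 10 largest positive and 5 largest negative differences shared by both genotypes, the 5 genes in most excess per top cell and the 10 most alike over classes. Sequences and positions are from GENCODE M21 on GRCm38. Gkn3, Mmp7 and other list members past 2-fold, and the runs of columns, were singled out after their values were seen.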

Additional observations from a re-analysis of the deposited data

How the results depend on the processing

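Of 72 alternative values 38 were counted as the same as the main value. The log2 ratio of ROBO over WT, -0.39 for all cells, was -0.043 without the 5 top cells, -0.034 without 5 of each genotype and -0.14 with each cell weighted equally, and it turned to 0.25 without the 26 top cells, 0.11 with UMIs capped at 6 and 1.05 in Sis-rich runs, chosen after seeing the data, as was -0.74 in Cubn-rich runs. Leaving out WT run 2, 3, 4 or 5 gave -0.13, -0.22, -0.042 or -0.97, and ROBO run 1 or 7 -0.56 or -0.22, all chosen after seeing the data. The difference in share was 6.05 points without thinning and 1.78 with it. For at least 2 Cym UMIs per thinned cell it was -1.03 (-2.96 to 0.88), counted as the same despite its sign. The stem-like level, 5.04, was 3.21 without the 5 top cells, 5.85 with Cym left out of the variable genes, 5.41 without phase correction, 7.46 and 5.65 at resolutions 0.4 and 1.2, 5.94 with 1000 variable genes, and 6.47 and 0.68 in Cubn-rich and Sis-rich runs. The middle enterocyte-like level, 4.26, was 3.43 in Sis-rich runs. Genes 2-fold higher in the top cells, 109, numbered 428 and 32 with 0.1 and 1 per 10000 added, 44 with a minimum of 300 UMIs, 250 with top cells by Cym per 10000 (17 of 26 shared) and 64 with sums. Those lower, 192, numbered 1403, 27, 441 and 113 in turn, without the change of minimum. The log2 ratio by Lgr5 over all stem-like cells, 2.48, was 1.55 without the 5 top cells and 3.51 with Cym left out of the variable genes. The cause of these changes was not tested. Leaving out the 6 called doublets gave -0.39. No paired analysis was possible because the columns carry no sample number, and leaving out each replicate was not run for the same reason. Depth limits shares, since 58.3% of carriers had 1 UMI.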
